A study of Homo sapiens with 48 samples.

Results

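Ribosome biogenesis and nucleolar genes were followed here as 1 set of 44 genes, listed by gene symbol for their roles in making ribosomes. Earlier results of these data were known when the set was chosen. The set was 44 of 60610 genes in the count table, and all 44 were among the 19626 genes that could be tested. By role, 5 members serve RNA polymerase I transcription, 8 belong to small nucleolar ribonucleoproteins (snoRNPs), 4 are organising proteins of the nucleolus, 13 build the small ribosomal subunit and 14 the large one.

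The cells were HEK293, a human embryonic kidney line. They were a clone from limiting dilution that stably expresses AT1R, the type 1 receptor for angiotensin II (AII), and was selected with puromycin in the presence of the AT1R antagonist losartan. All groups share this 1 clone and serum-free medium during stimulation, and were left unstimulated (control) or received 1 nM AII, 10 µg/L EGF (epidermal growth factor) or both (AII + EGF), for 6 h or 24 h. Each of the 8 groups has 6 libraries by its labels, which do not say whether these came from separate cultures, so p-values measure the spread between these libraries, which may be technical.

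Ribosomes are made in the nucleolus. RNA polymerase I transcribes the long precursor of ribosomal RNA, snoRNPs guide its chemical modification, and a large series of assembly factors folds, cuts and packs it with ribosomal proteins into the small and the large subunit. Growth factors are known to raise this activity, and MYC, a transcription factor that binds the E-box sequence, is known as an activator of many of its genes.

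Of the 48 libraries, 38 were used. Left out were 8 libraries that form 4 near-identical pairs, and 2 libraries with labels in doubt. The pairs differ by less than sampling noise (chi-square per degree of freedom 0.397 to 0.505, while the next pair of a group reached 2.02). Only 1 pair lay within a group (EGF 6 h). The others joined control 6 h with EGF 24 h, EGF 6 h with AII + EGF 6 h, and control 6 h with AII 24 h. The median over all pairs within a group was 48.3. Some used libraries were also far closer than that: AII 6 h replicates 1 and 2 (2.02), EGF 6 h replicates 3 and 4 (3.32) and AII + EGF 24 h replicates 1 and 2 (3.96). Each of them was counted as a separate library in the tests, so the spread in these groups may be too small. On a scale set by the used libraries of AII (0) and AII + EGF (1) at 6 h, over 835 genes that differ between them and hold 1 member, AII 6 h replicate 6 as labelled was placed at 0.82 and AII + EGF 6 h replicate 6 as labelled at −0.02. This left 4, 5, 3 and 4 libraries of control, AII, EGF and AII + EGF at 6 h and 6, 5, 5 and 6 at 24 h, with 17.8 to 29.96 M counts. The 3 EGF 6 h libraries, with 28.03 to 29.96 M counts, were deeper than the 4 controls, which had at most 22.7 M. AGTR1, whose counts join the introduced and the cell's own receptor gene, was present in every used library (3959 CPM at the lowest), as were KRT8, KRT18, LIN28B and NEFM, which HEK293 cells express. PAX2 was low (0.27 to 3.90 CPM). The leukocyte, endothelial and hepatocyte genes PTPRC, PECAM1 and ALB stayed at or below 0.40 CPM, and UMOD of kidney tubules had 0 counts. MYH11 of smooth muscle, also looked at as a gene of other cells, was counted in every used library (0.71 to 2.16 CPM). CPM are counts scaled by library total and TMM factor.

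AII + EGF for 6 h raised the mRNA of most of these genes. Against control, 26 of 44 members rose and 0 fell at an adjusted p under 0.01 (edgeR's quasi-likelihood test, Benjamini-Hochberg over all tested genes), while 12.4% of all tested genes rose and 11% fell. By a stricter rule, which adds the study's thresholds of size and level (at least 1.5-fold and more than 5 CPM) but uses edgeR alone where the study asked for both edgeR and DESeq2, 12 members were called, against 12% of all tested genes. The median log2 change was 0.45 over the members, from −0.17 to 1.07, and −0.03 over all tested genes. In 29 members the AII + EGF libraries all lay above the control libraries, which held for 17.4% of all tested genes. In bulk samples, fewer cells of a kind and less RNA per cell cannot be told apart, and these values are shares of the mRNA of a library.

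**Figure D1:**
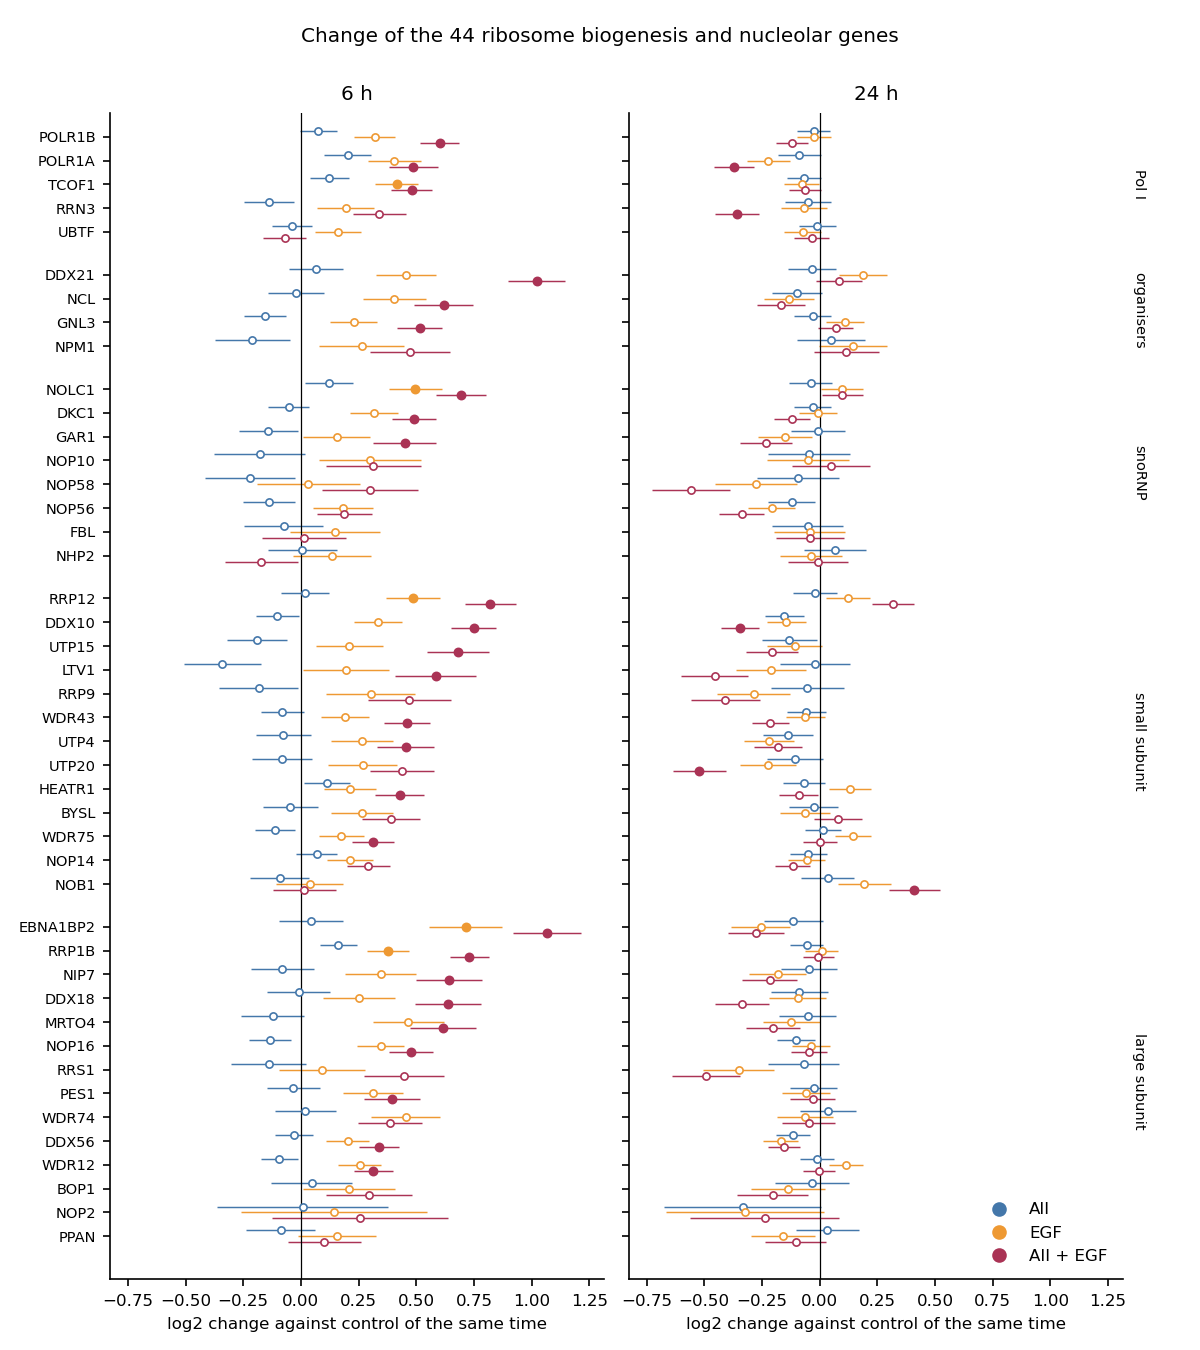
Log2 change of each of the 44 genes against the control of the same time (x axis) at 6 h (left) and 24 h (right), for AII (blue), EGF (orange) and AII + EGF (red), with bars of 1 SE and filled points for an adjusted p under 0.01. At 6 h the red points lie between −0.17 and 1.07 and 42 of 44 are above 0, and at 24 h 35 of 44 are below 0.

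The strongest riser was EBNA1BP2 (ENSG00000117395, GRCh38 chr1:43164174-43172570), a nucleolar assembly factor of the large subunit. Its level was 106, 133, 134 and 160 CPM in control, 116, 117, 143, 150 and 160 CPM under AII, 213, 214 and 228 CPM under EGF, and 248, 249, 296 and 323 CPM under AII + EGF at 6 h. The groups stood in 3 steps without overlap, with control and AII together at the bottom, EGF above them and AII + EGF at the top. The rise under AII + EGF was 2.09-fold (log2 1.07 ± 0.15 SE, adjusted p 3.76e-07 by edgeR).

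DDX21 (ENSG00000165732, GRCh38 chr10:68956170-68985068) is an RNA helicase of the nucleolus. It had 509, 513, 535 and 556 CPM in control, 504, 528, 570, 572 and 589 CPM under AII, 673, 746 and 754 CPM under EGF, and 982, 1012, 1096 and 1202 CPM under AII + EGF at 6 h. The steps were the same as for EBNA1BP2, again without overlap between EGF and AII + EGF. The joint rise was 2.03-fold (log2 1.02 ± 0.12 SE, adjusted p 1.80e-08 by edgeR).

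E-boxes with the letters CACGTG, which read the same on both strands, were searched in RefSeq promoter windows (GRCh38.p14, 250 bases before to 50 after each start). The table matched 36 of 44 members with 46 windows. The box was present in 17 member windows (36.96%) and in 1540 of 17010 windows of all tested genes (9.05%). The ETS core CCGGAA, searched on both strands, was in 45.7% of member windows and 24.5% of all, the GC box GGGCGG in 65.2% and 64.3%, and the EGR site GCGTGGGCG in 0 of the 46 and in 1.22% of all. None of the 4 motifs contains another, though the last 2 can overlap. By gene, 16 of 36 members held a box: 9 of the 21 matched members that rose under AII + EGF at 6 h and 7 of the 15 that did not pass. A match is a description and not a binding site. The EBNA1BP2 box shown begins 237 bases before a start, and another box, 42 bases after a different start, is not shown. The DDX21 box begins 31 bases before a start that lies within the gene span given above. Stretches around the box are shown for some members of both kinds, not for all, and for more risers than others. The box is in capitals and the sequence in gene direction.
DDX21 (chr10:68956604-68956633, plus strand, rose): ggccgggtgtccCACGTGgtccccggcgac
EBNA1BP2 (chr1:43172790-43172819, minus strand, rose): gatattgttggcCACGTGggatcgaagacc
MRTO4 (chr1:19251807-19251836, plus strand, rose): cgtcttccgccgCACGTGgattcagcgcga
GNL3 (chr3:52686026-52686055, plus strand, rose): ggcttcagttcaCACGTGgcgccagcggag
WDR43 (chr2:28894658-28894687, plus strand, rose): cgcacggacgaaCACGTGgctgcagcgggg
UTP4 (chr16:69132621-69132650, plus strand, rose): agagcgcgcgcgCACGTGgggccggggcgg
NOP10 (chr15:34343130-34343159, minus strand, not passed): gaaattgacgaaCACGTGacgcggtcgggc
FBL (chr19:39846356-39846385, minus strand, not passed): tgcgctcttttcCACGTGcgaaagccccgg

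The next 3 risers were RRP12, DDX10 and RRP1B. RRP12 (ENSG00000052749), needed for the maturation and export of pre-ribosomes, had 60.8, 64.4, 75.8 and 79.5 CPM in control and 112, 116, 124 and 143 CPM under AII + EGF, a log2 rise of 0.82 ± 0.11 (adjusted p 1.88e-07 by edgeR). DDX10 (ENSG00000178105), a helicase of the small-subunit pathway, had 46.2, 55.3, 56.5 and 58.8 CPM in control and 80.2, 89.9, 92.5 and 102 CPM under AII + EGF, a rise of 0.75 ± 0.10 (adjusted p 1.33e-07 by edgeR). For both genes the lowest joint library lay well above the highest control. RRP1B (ENSG00000160208), a nucleolar protein of large-subunit processing, had 258, 301, 302 and 303 CPM in control and 455, 465, 487 and 525 CPM under AII + EGF, a rise of 0.73 ± 0.08 (adjusted p 7.06e-09 by edgeR). In control 3 of its 4 libraries were nearly equal and the remaining one stood lower.

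**Figure D2:**
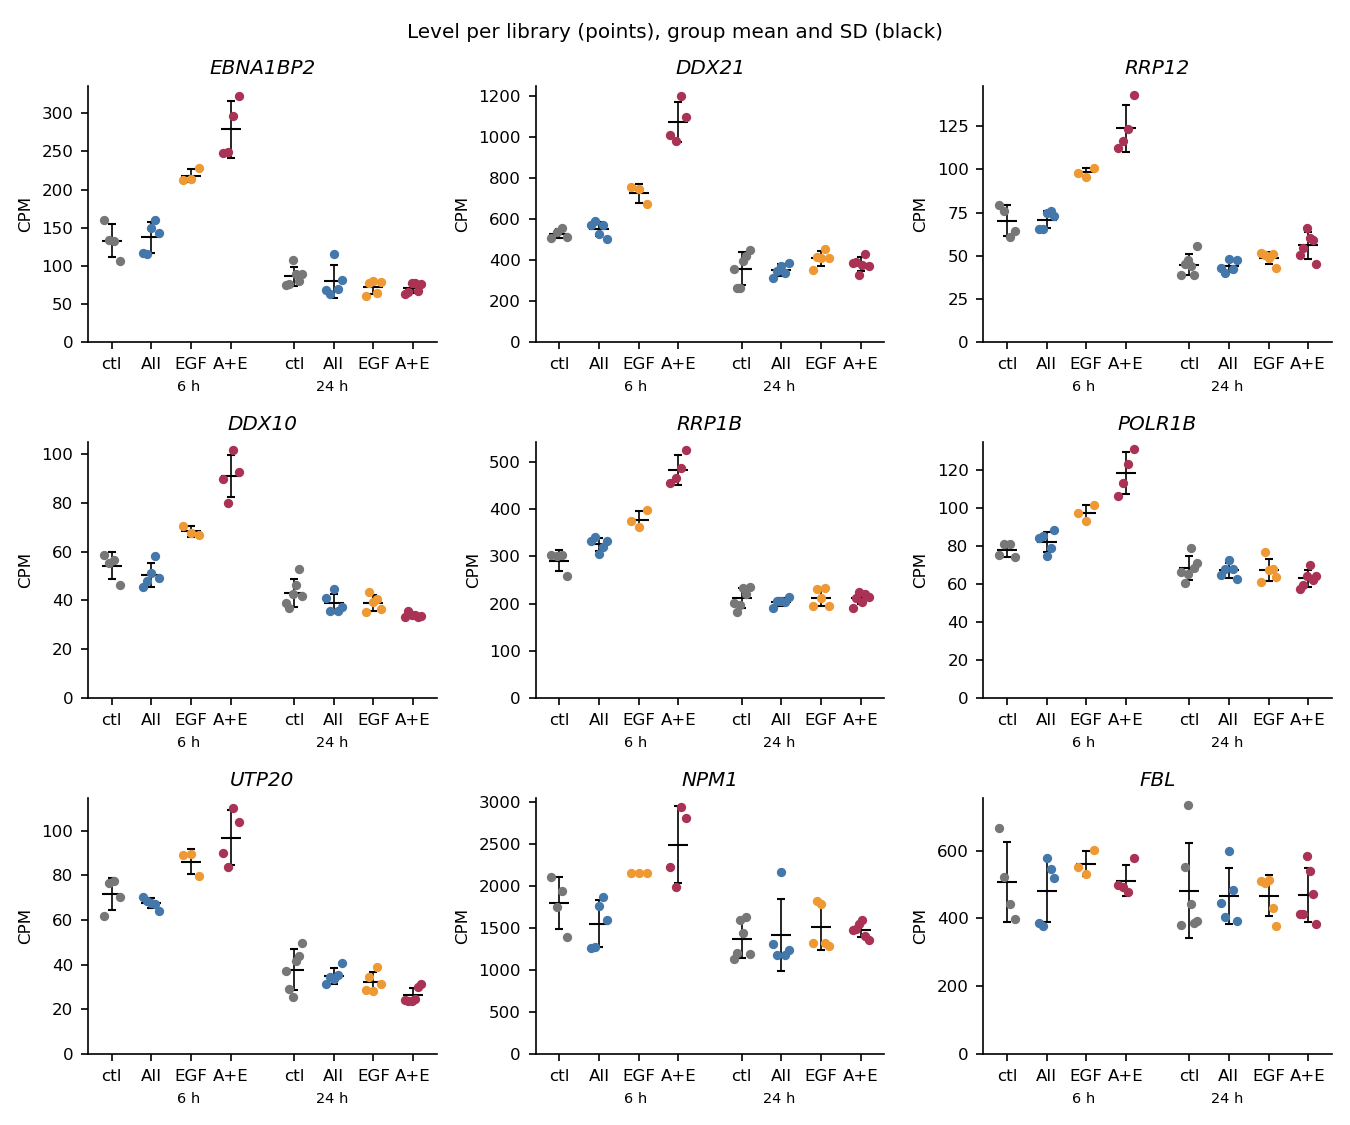
CPM (y axis, from 0) of 9 of the 44 genes in each used library (points) of the 8 groups, with the group mean and SD in black (ctl, control; A+E, AII + EGF). EBNA1BP2, DDX21, RRP12, DDX10, RRP1B and POLR1B step up at 6 h from control and AII over EGF to AII + EGF without overlap between these 3 steps, and FBL of AII + EGF (479 to 578 CPM) lies within its controls (397 to 668 CPM).

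By role, the machinery of RNA polymerase I held 3 risers of 5. POLR1B, the second largest subunit of the enzyme, had 74.0, 75.3, 81.1 and 81.1 CPM in control and 106, 113, 123 and 131 CPM under AII + EGF, a log2 rise of 0.60 ± 0.08 (adjusted p 4.04e-07 by edgeR). POLR1A, the largest subunit, rose by 0.49, and TCOF1, the treacle protein that links polymerase I to processing, by 0.48. RRN3, the initiation factor that joins the polymerase to its promoter, had a change of 0.34 (adjusted p 0.0203 by edgeR). UBTF, the factor that keeps ribosomal DNA open, had 261, 311, 335 and 341 CPM in control and 270, 284, 300 and 335 CPM under AII + EGF, with a change of −0.07 ± 0.09 (adjusted p 0.609 by edgeR). The AII + EGF libraries of UBTF lay within the range of its controls. RRN3 has transcribed pseudogenes, and how reads between such copies were split is not stated.

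The 4 organising proteins all had positive changes and 3 passed. After DDX21 came NCL (nucleolin, log2 0.62) and GNL3 (nucleostemin, 0.51). NPM1 (nucleophosmin), a nucleolar chaperone that has many pseudogenes that can share its reads, had 1394, 1750, 1941 and 2102 CPM in control and 1989, 2228, 2813 and 2938 CPM under AII + EGF. Its change was 0.47 ± 0.17 (adjusted p 0.0316 by edgeR), the smallest of the 4, and its groups overlapped.

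The snoRNP proteins were split, with 3 of 8 past the test and a median of 0.31. NOLC1, the chaperone of snoRNPs, had 292, 368, 372 and 397 CPM in control and 512, 559, 590 and 649 CPM under AII + EGF, a log2 rise of 0.69 ± 0.11 (adjusted p 2.98e-06 by edgeR). The pseudouridine synthase DKC1 (0.49) and its partner GAR1 (0.45) also rose. Their partners NOP10 and NHP2 had changes of 0.31 and −0.17 and did not pass. Of the box C/D core, NOP58 and NOP56 had 0.30 and 0.19 without passing. FBL (fibrillarin), the methyltransferase of that core, had 397, 441, 522 and 668 CPM in control and 479, 491, 500 and 578 CPM under AII + EGF, with a change of 0.01 ± 0.18 (adjusted p 0.965 by edgeR). The controls of FBL spread more widely than the joint libraries, which lay within their range.

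Small-subunit factors rose in 8 of 13 cases with a median of 0.45. Beside RRP12 and DDX10, the risers were UTP15 (log2 0.68), WDR43 (0.46), UTP4 (0.45), HEATR1 (0.43) and WDR75 (0.31), which belong to the complex that binds the nascent precursor RNA, and LTV1 (0.58), a late export factor. Not past the test, with adjusted p-values of 0.0128 to 0.0399 by edgeR, were UTP20 (0.44), the assembly factors BYSL (0.39) and NOP14 (0.29), and RRP9 (0.47), a protein of the U3 snoRNP. NOB1, the endonuclease that makes the last cut in the small-subunit RNA, had 50.7, 51.3, 66.9 and 67.3 CPM in control and 54.6, 56.3, 59.0 and 68.8 CPM under AII + EGF, with a change of 0.02 ± 0.14 (adjusted p 0.948 by edgeR). Of this group it had the smallest change and the libraries were mixed.

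Large-subunit factors rose in 9 of 14 cases with a median of 0.42. With EBNA1BP2 and RRP1B these were the assembly factors NIP7 (log2 0.64), MRTO4 (0.62) and NOP16 (0.48), the RNA helicases DDX18 (0.64) and DDX56 (0.34), and PES1 (0.39) and WDR12 (0.31). PES1 and WDR12 form a complex with BOP1, whose change of 0.30 (adjusted p 0.237 by edgeR) did not pass. Nor did the assembly factors RRS1 (0.45, adjusted p 0.0433) and WDR74 (0.39, 0.0304 by edgeR). PPAN had the smallest change of the group (0.10 ± 0.16, 9.68 to 13.7 CPM in control and 10.5 to 14.7 CPM under AII + EGF), and it shares sequence with a read-through transcript that joins it to its neighbour. NOP2, a methyltransferase of ribosomal RNA, had 0.65 to 1.27 CPM in control and 3 to 35 counts in the used libraries. With so few counts its change of 0.26 ± 0.38 could not be told from 0, and why they were few was not tested.

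Sample titles in their order go through the 4 treatments again and again, and each such pass is called a title run here, with no meaning given in the labels. Of the runs with both groups, 1 gave a median log2 change of 0.47 with 39 of 44 members higher (1 library against 2) and the other 0.60 with 44 of 44 higher (1 against 1), as values with no test. Without factors for composition, on library totals, the median over all tested genes shifted from −0.03 to −0.14 and that of the members from 0.45 to 0.34, with 18 members past the test. With the 2 libraries of doubtful labels put back, 11 members passed (median 0.37).

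Under EGF alone the changes had the same direction and a smaller median. All 44 log2 changes were above 0 at 6 h (0.03 to 0.71) with a median of 0.26 against −0.01 over all tested genes. Of these 5 passed, all higher, while 2.71% of all tested genes rose and 0.657% fell, and 1 member (EBNA1BP2) met the stricter rule, against 1.94% of all tested genes. In 25 members the 3 EGF libraries all lay above the 4 controls, which held for 13.2% of all tested genes. EGF replicates 3 and 4 are a close pair, as given above. The 5 were EBNA1BP2 (0.71 ± 0.16, adjusted p 0.00272), NOLC1 (0.50 ± 0.12, 0.00477), RRP12 (0.49 ± 0.12, 0.00692), TCOF1 (0.41 ± 0.09, 0.00331) and RRP1B (0.38 ± 0.09, 0.00585) by edgeR. Within title runs the median was 0.21 with 42 members higher and 0.32 with 43 higher. The count of 5 was 0 without any 1 of the 3 EGF libraries or without control replicate 6. The greater depth of the EGF libraries moved with this group and its part in the result was not tested.

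AII alone moved no member past the test at 6 h. Of 44, 0 passed by edgeR or DESeq2 and 2 had an unadjusted p under 0.05, while 0.836% of all tested genes rose and 0.0866% fell. The median log2 change was −0.08 (from −0.34 to 0.20) against −0.01 over all tested genes, with 30 members below 0, and within title runs it was −0.04 and 0.06. It was 0.19 with all 48 libraries, 0.06 with 40 and 0.05 with 46, so its direction depends on which libraries are used. By library, the members' median log2 ratio to control was −0.13 and −0.18 in AII replicates 1 and 2, whose title run has no used control. It was −0.009, 0.011 and 0.009 in AII replicates 3, 4 and 5. LTV1 had 34.8, 38.02, 38.3, 42.1 and 51.2 CPM under AII and 48.2, 48.7, 54.7 and 55.6 CPM in control, a change of −0.34 ± 0.17 (adjusted p 0.403 by edgeR). RRP1B, with 305 to 340 CPM, had a change of 0.16 ± 0.08 (adjusted p 0.409), and POLR1A, with 114 to 118 CPM, reached 0.20 ± 0.10 (adjusted p 0.428 by edgeR). The AII libraries all lay above control in 1 member (RRP1B) and all below in 1 (UTP15), against 4.88% and 2.64% of all tested genes.

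**Figure D3:**
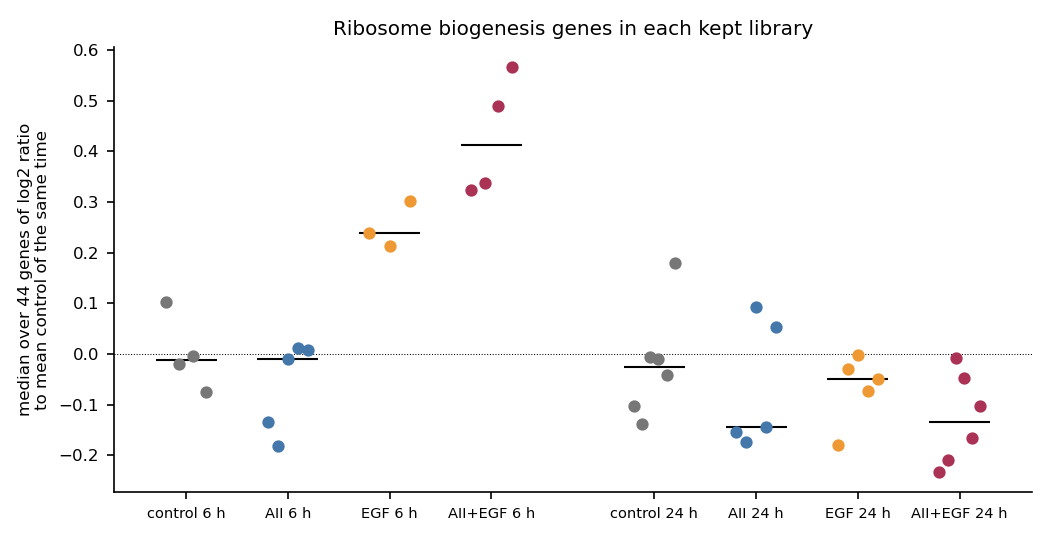
Median over the 44 genes of the log2 ratio of each used library to the mean control of its time (y axis), by group (x axis), with the group median as a line. CPM were scaled over all 48 libraries together here. At 6 h the EGF libraries lie at 0.21 to 0.30 and the AII + EGF libraries at 0.32 to 0.57, above the control and AII libraries (−0.18 to 0.10), and at 24 h all groups overlap.

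The direct comparison of the joint stimulus with each single one asked what the second ligand added. These comparisons share libraries with those against control and are not independent of them. Against AII at 6 h, 30 of 44 members were higher and 0 lower (median log2 0.52), while 9.48% of all tested genes were higher, and in 37 members the AII + EGF libraries all lay above the AII libraries (14.5% of all tested genes). DDX10 rose by 0.85 ± 0.09 (adjusted p 4.33e-09 by edgeR), LTV1 by 0.92 and UTP15 by 0.87 in this comparison.

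Against EGF at 6 h the differences were smaller. In 38 of 44 members the log2 difference was above 0 (median 0.17, against −0.01 over all tested genes, and 0.28 in either title run) and 3 passed, while 2.7% of all tested genes were higher. These were DDX21 (0.57 ± 0.13, adjusted p 0.00355), RRP1B (0.35 ± 0.09, 0.00804) and DDX10 (0.41 ± 0.11, 0.00816) by edgeR. In 13 members all AII + EGF libraries lay above all EGF libraries, against 13.9% of all tested genes. In 2 members (NHP2 and UBTF) all lay below, against 16.4% of all tested genes. The 3 passes were lost without any 1 of the 3 EGF libraries or without AII + EGF replicate 3, while 16 members passed, all higher, with title run as a block. In fits with this block, here and below, the share of all tested genes that passed was not counted.

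The interaction asks whether the joint fold change exceeds the product of the single ones. At 6 h 0 members passed by edgeR or DESeq2, 7 had an unadjusted p under 0.05, and 0.107% of all tested genes passed above 0 and 0.158% below. The members' median log2 interaction was 0.23, with 38 of 44 above 0, against −0.01 over all tested genes. The median was −0.10 with all 48 libraries, 0.01 with 40 and 0.08 with 46, and between 0.21 and 0.31 in the other alternatives. The lowest adjusted p-values were those of DDX10 (0.52 ± 0.14, adjusted p 0.0794), UTP15 (0.66 ± 0.19, 0.111) and GNL3 (0.44 ± 0.14, 0.151) by edgeR. None of these passed, and with all 48 libraries their values were −0.0083, −0.020 and −0.0012. That fit puts back the near-identical pairs, among them control 6 h replicates 1 and 2, and the 2 libraries with labels in doubt. Their part in these values was not tested. At 24 h 0 members passed by either tool (0 at an unadjusted p under 0.05), as did 0% of all tested genes above 0.

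At 24 h most members no longer lay above control. Under AII + EGF 1 member was higher and 4 lower than control by edgeR, while 5.29% of all tested genes rose and 5.1% fell. The median log2 change was −0.12 against −0.02 over all tested genes, with 35 of 44 members below 0, and in the 4 title runs of 24 h it was −0.12, −0.07, −0.13 and −0.26. The 5 calls depended on the fit: 0 passed with only the 2 groups fitted and 13 passed with title run as a block, and the count was 2 without control replicate 6 and 11 without AII + EGF replicate 6. Of the 26 members that rose at 6 h, 21 had a change below 0 at 24 h and 2 of these fell past the test (DDX10 and POLR1A).

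UTP20 (ENSG00000120800), a scaffold of the early small-subunit particle, fell most among the 4. Its lowest, median and highest level was 25.4, 39.4 and 49.6 CPM in control and 23.7, 24.4 and 31.3 CPM under AII + EGF, a fall by 0.52 on the log2 scale (SE 0.12, adjusted p 0.00119 by edgeR). The 2 groups overlapped in the lowest controls. DDX10 had 36.7, 42.1 and 53.0 CPM in control and 33.2, 33.7 and 35.9 CPM under AII + EGF, with no overlap, and fell by 0.35 (SE 0.08, adjusted p 0.00224 by edgeR). POLR1A fell by 0.37 (adjusted p 0.00247) and RRN3 by 0.36 (adjusted p 0.00616 by edgeR). The single riser was NOB1, with 51.3, 59.2 and 74.9 CPM in control and 64.0, 77.7 and 99.5 CPM under AII + EGF (0.41 ± 0.11, adjusted p 0.00691 by edgeR), the gene with almost no change at 6 h.

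UTP20, which had the largest fall past the test at 24 h and has 1 start window, is shown with its whole upstream stretch. The 250 bases before its start (chr12:101279855-101280104, plus strand) hold 1 box, which begins 10 bases before the start.
UTP20: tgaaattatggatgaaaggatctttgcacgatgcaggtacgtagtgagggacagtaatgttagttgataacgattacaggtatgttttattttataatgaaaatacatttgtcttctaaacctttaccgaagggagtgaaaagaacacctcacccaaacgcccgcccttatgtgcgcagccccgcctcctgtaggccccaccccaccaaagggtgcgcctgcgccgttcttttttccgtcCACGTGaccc

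Neither ligand alone moved a member past the test at 24 h in the fit without a block. Under AII 0 passed by edgeR or DESeq2 and 0 had an unadjusted p under 0.05 (median log2 −0.05), and 0% of all tested genes rose and 0% fell. The lowest p-values belonged to DDX10 (−0.15), DDX56 (−0.12) and NOP16 (−0.10), each with an adjusted p of 1.00 by edgeR. Under EGF 0 passed by either tool and 5 had an unadjusted p under 0.05 (median −0.07), while 0.392% of all tested genes rose and 0.194% fell. POLR1A (−0.22, adjusted p 0.235), RRS1 (−0.35, 0.269) and DDX56 (−0.17, 0.275 by edgeR) came first. With title run as a block 4 members passed under EGF, all lower. AII + EGF differed from EGF alone in 0 members at 24 h by edgeR and DESeq2 (5 at an unadjusted p under 0.05), against 0.122% of all tested genes higher and 0.0459% lower, with RRN3 (−0.29), HEATR1 (−0.22) and UTP20 (−0.30) at the lowest p-values. Against AII alone, where 2.38% of all tested genes were higher and 2.26% lower, 0 members passed by edgeR, 1 by DESeq2 and 11 had an unadjusted p under 0.05. RRP12 (0.34), UTP20 (−0.41) and NOB1 (0.37) came nearest, with adjusted p-values of 0.0171, 0.0211 and 0.0298 by edgeR. With title run as a block 10 members passed against AII, 2 higher and 8 lower, with no share of all tested genes counted in that fit.

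The change of the joint response with time was tested itself. The log2 response to AII + EGF was lower at 24 h than at 6 h in 28 of 44 members and higher in 0, while 8.84% of all tested genes were lower, and the median difference was −0.57 against −0.02. Of the 26 risers of 6 h, 23 were among the 28. Both counts use the same AII + EGF and control libraries of 6 h, so this overlap is partly built in. EBNA1BP2 fell in response by 1.34 (SE 0.19, adjusted p 1.36e-06 by edgeR) and DDX10 by 1.09 (SE 0.13, adjusted p 3.14e-08 by edgeR). Among the others past the test were LTV1 (−1.04), DDX18 (−0.97), UTP20 (−0.96), RRS1 (−0.94) and RRP1B (−0.74), while NOB1 (0.39), NHP2 (0.16) and UBTF (0.04) were the 3 members with a difference above 0, none past the test. Libraries of the 2 times come from different title runs, so time and run cannot be told apart.

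For sums over the 44 genes, CPM were scaled over all 48 libraries together, unlike those of single genes. As a sum over the 44 genes, the mean level at 6 h was 9481 ± 881 CPM in the 4 controls (SD) and 9132 ± 845 CPM in the 5 libraries with AII. It was 11682 ± 257 CPM in the 3 EGF libraries and 13363 ± 1532 CPM in the 4 with both, which was 1.34% of the scaled total. At 24 h the 4 group means lay between 7163 and 7425 CPM. The sums of the 6 h AII + EGF libraries, from 11830 CPM, stood above all control libraries of 6 h, up to 10308 CPM. Without NCL and NPM1, the most abundant members, the other 42 summed to 7721 to 9155 CPM under AII + EGF and 5571 to 6479 CPM in control at 6 h, still without overlap.

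Other genes of the same pathway were read from lists of further factors, whose counts stand beside the 12.4% of all tested genes that rose and the 11% that fell under AII + EGF at 6 h. Of 46 other small-subunit factors, 12 rose (26.1%) and 1 fell (2.17%) in that comparison (median log2 0.32), with PNO1 (0.91 ± 0.17) and TSR1 (0.73 ± 0.09), both assembly factors of the small subunit, at the top. TSR3, which modifies the small-subunit RNA, fell by 0.70 (SE 0.17, adjusted p 0.00121 by edgeR), a call lost with all 48 libraries and with complete title runs (adjusted p up to 0.0696). Of 48 tested among 49 other large-subunit factors, 19 rose (39.6%) and 1 fell (2.08%), with a median of 0.32. MAK16 (0.87 ± 0.12) and the GTPase GTPBP4 (0.75 ± 0.09) rose most, and NOP53 fell by 0.78 (SE 0.15, adjusted p 9.29e-05 by edgeR).

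Ribosomal proteins are what these factors assemble into the subunits. Of 79 cytosolic ribosomal protein genes 0 rose and 0 fell by edgeR (4 at an unadjusted p under 0.05), the median log2 change was −0.19 and 69 were below 0. On library totals without factors 2 of them fell and 78 were below 0. These genes have many processed pseudogenes, and their counts are uncertain where reads were shared. Of 14 RNA exosome genes 1 (7.14%, against 12.4% of all tested genes) rose, which was EXOSC9, a subunit of its ring (0.36 ± 0.10, adjusted p 0.00328 by edgeR). Its call was lost in 6 of 13 alternatives (adjusted p up to 0.0341) and without control replicates 4 or 6 or AII + EGF replicates 3 or 5 (up to 0.0179).

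Among 25 other subunits and factors of RNA polymerases I and III, 1 rose (4%) and 2 fell (8%), against 12.4% and 11% of all tested genes. POLR3G rose 2.40-fold (log2 1.26 ± 0.18, adjusted p 4.52e-07 by edgeR) from 27.5 to 65.9 CPM. POLR3GL, whose product takes the place of the POLR3G product in an alternative form of RNA polymerase III, fell by 1.32 on the log2 scale (SE 0.21, adjusted p 3.18e-06 by edgeR) from 18.6 to 7.46 CPM. The 2 interchangeable subunits moved in opposite directions. BRF1, an initiation factor of the same enzyme, fell by 0.37 (SE 0.09, adjusted p 0.00174 by edgeR), a call lost without a filter on low counts (adjusted p 0.0164) and without control or AII + EGF replicate 3 (up to 0.0182).

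**Figure D4:**
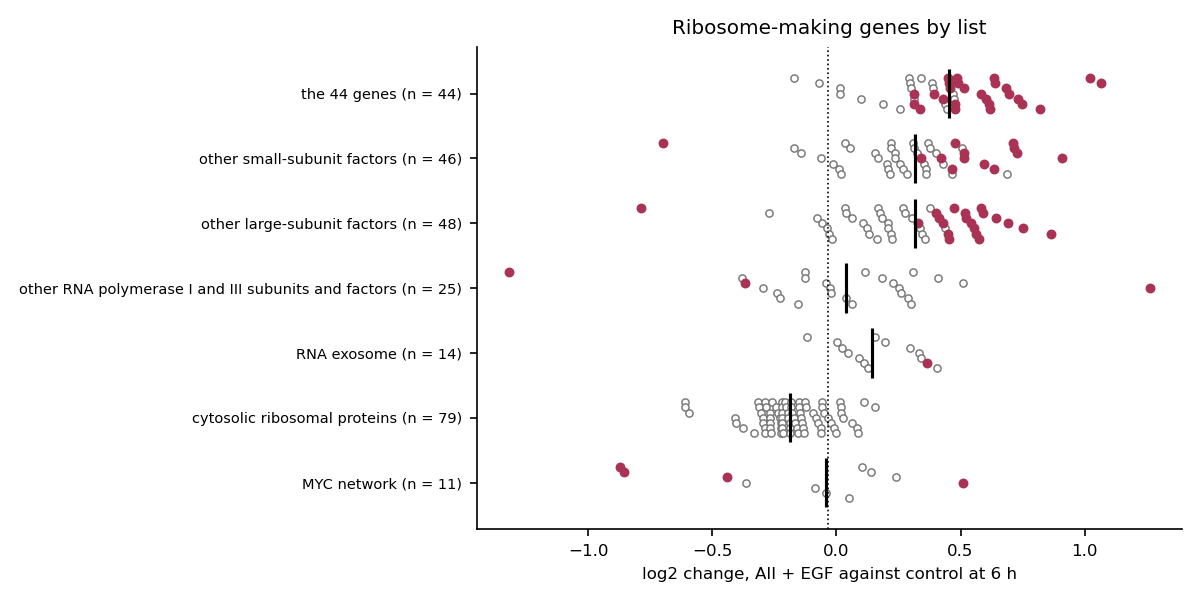
Log2 change under AII + EGF against control at 6 h (x axis) of each gene of the 44 and of 6 further lists (y axis), with filled points for an adjusted p under 0.01, a bar at each list's median and a dotted line at the median of all tested genes (−0.03). The medians are 0.45 for the 44 genes, 0.32 for both lists of further subunit factors and −0.19 for the ribosomal proteins.

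The mRNA of MYC itself did not rise at 6 h. MYC had 580 to 724 CPM in control (mean 653 ± 74.8, SD, n = 4) and 467 to 515 CPM under AII + EGF (mean 481 ± 22.9, n = 4), and fell by 0.44 on the log2 scale (SE 0.13, adjusted p 0.00798 by edgeR), without overlap. The call was lost in 6 of 13 alternatives, with adjusted p-values of 0.0102 to 0.0615, and without control replicates 3 or 4 or any 1 of AII + EGF replicates 1, 2, 3 and 5 (up to 0.0335). Under EGF (−0.25) and AII (−0.23) it did not pass, and at 24 h under AII + EGF it had 0.33 ± 0.11 (adjusted p 0.0258 by edgeR). Of the 11 genes of the MYC network list, 1 rose (9.09%) and 3 fell (27.3%) at 6 h, against 12.4% and 11% of all tested genes. Beside MYC these were MXD3 (−0.87 ± 0.16) and MXD4 (−0.86 ± 0.11), whose products compete with MYC for the same partner protein and repress its targets, and MGA, another partner of MAX, which rose by 0.51 (SE 0.14, adjusted p 0.00421 by edgeR). The call of MGA was lost in 4 of 13 alternatives (adjusted p up to 0.121) and without control replicates 3 or 6 or AII + EGF replicates 1 or 2 (up to 0.0252), and that of MXD3 with complete title runs (0.0148).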

How the data were processed

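Poly(A) RNA of the AT1R-expressing HEK293 clone was sequenced. According to the submitters' processing notes the authors mapped reads to hg38 with HISAT2 2.1.0 and counted them per gene with featureCounts. They deposited whole-number counts without normalisation in 1 table, with 0 columns of counts outside the 48 libraries. Strandedness and the handling of reads with several matches are not given in the sources used here, so counts of antisense, overlapping and copied genes are uncertain.

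The sample labels gave the groups, and replicate numbers follow the order of deposition. The 10 libraries left out were 8 of near-identical pairs (compared over genes that reached 100 counts between both) and 2 with labels in doubt. Counts of the other 38 (17.8 to 29.96 M, mean 22.3 ± 3.02 M, SD) were analysed in R 4.3.3 with edgeR 4.0.16: filterByExpr by group, TMM factors and 1 quasi-likelihood fit over the 8 groups without covariates, with 30 residual degrees of freedom. A gene passed at a Benjamini-Hochberg adjusted p under 0.01 over all 19626 tested genes. Each SE is the log2 change divided by the square root of the F value. NOP2 had 3 to 35 counts in a library, where counting error limits its precision.

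Named were the 5 largest rises and falls under AII + EGF at 6 h, in other comparisons the 3 lowest adjusted p-values and up to 6 members called at the study's thresholds of size and level with edgeR alone, per role the largest and smallest change, per pathway list up to 2 rises and 2 falls, and MYC. Members named beside these are given to account for the whole set, and MYC network partners, promoter motifs and the printed windows were chosen with values in view. The 44 members and all lists were chosen with earlier results of these data known.

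Alternatives were DESeq2 1.42.0, RLE factors, library totals, 2 other filters, an adjusted p under 0.05, only the groups of a comparison, other library sets, title run as a block, and leaving out each library. Complete title runs alone were added after seeing the data. Within runs, values were log2(CPM + 0.5). The fits were also run on simulated counts in which 200 genes changed under AII + EGF at 6 h. These covered only part of the comparisons, and those of a single ligand with control were not checked. Promoters and positions came from RefSeq on GRCh38.p14.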

Additional observations from a re-analysis of the deposited data

Results flagged for a closer look

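Levels of 19 named members were looked at in 133 groups of at least 4 libraries for a single value far from the rest, and 6 stood apart. Chance gives about 1 in 20 (5%) of such groups. They were LTV1 under AII + EGF at 24 h (31.5 CPM in replicate 6, next 21.4), DDX10 in the same group (35.9 CPM in replicate 2, next 33.9), RRP1B in control at 6 h (258 CPM in replicate 6, next 301), NPM1 under AII at 24 h (2171 CPM in replicate 3, next 1304), RRS1 in control at 24 h (18.5 CPM in replicate 6, next 11.02) and RRS1 under EGF at 24 h (13.01 CPM in replicate 6, next 9.22). Of the 6 values, 4 belong to libraries numbered replicate 6.

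The response to AII + EGF differed between 24 h and 6 h, by the test of the difference itself, in 28 of 44 members by edgeR. Among the named members the log2 differences were −1.34 for EBNA1BP2, −1.09 for DDX10, −1.04 for LTV1, −0.97 for DDX18, −0.96 for UTP20, −0.94 for RRS1 and −0.74 for RRP1B.

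Of the 10 libraries left out, 5 had a median log2 ratio of the 44 genes to control above the highest used control of 6 h (0.10). The library labelled AII 6 h replicate 6 reached 0.58, above the AII + EGF libraries in use (0.32 to 0.57). EGF 6 h replicates 1, 2 and 6 had 0.23, 0.31 and 0.34, and AII + EGF 6 h replicate 4, which is near-identical to EGF 6 h replicate 1, had 0.23. The library labelled AII + EGF 6 h replicate 6 had −0.06. Control 6 h replicates 1 and 2 had −0.45 and −0.33, below the lowest used control of 6 h (−0.07). Their sums over the 44 genes were 6997 and 7502 CPM, against 8267 to 10308 CPM in the used controls of 6 h. The used controls of 24 h had 6858 to 7935 CPM. Both left-out controls are near-identical to a library of 24 h, and fits that put back the pairs count them as controls of 6 h.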

How the results depend on the processing

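The count of members past the test under AII + EGF at 6 h (26) stayed within 1.5 times in 12 of the 13 alternatives, with 29 by DESeq2 that included all 26, and was 11 with 40 libraries, which keep the 2 with labels in doubt. It ranged from 20 to 28 when single libraries were left out. In each of 12 alternatives 8 of the 26 passed (EBNA1BP2, DDX21, RRP12, DDX10, RRP1B, NOLC1, POLR1B and TCOF1), and 19 in each fit without 1 library. For the time difference (28) the same 40 libraries gave 9, and single libraries 21 to 30. Against AII at 6 h (30) all 48 libraries gave 2, 40 libraries 2 and single libraries 25 to 31.

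Smaller counts moved more. For most of these alternatives the share of all tested genes was not counted. EGF at 6 h (5) gave 10 at an adjusted p under 0.05, 1 without a filter, with the study's filter and with only its own groups, 12 with all 48 libraries, 27 with 46, 8 with the run block, and 0 with 40 libraries, without title runs 7 and 8 and with complete runs; it gave 0 to 6 without single libraries (3 without AII 6 h replicate 1 or 2 or control 6 h replicate 5, 2 without AII + EGF 24 h replicate 2). AII + EGF at 24 h (5) gave 11, 3 without a filter, 0 with its own groups, 1 with 48 libraries, 2 with 40, 13 with the run block and 3 with complete runs, and 2 to 11 without single libraries (2 without control replicate 6, 3 without control replicates 4 or 5 or AII + EGF replicates 2, 4 or 5, 8 without EGF replicate 6, 11 without AII + EGF replicate 6). AII + EGF against EGF at 6 h (3) gave 5 at an adjusted p under 0.05 and with its own groups, 1 on library totals, without a filter and with the study's filter, 0 with 48, 40 or complete-run libraries, 16 with the run block, and 0 to 3 without single libraries (1 without AII + EGF replicate 5). AII + EGF against AII at 24 h (0) gave 5 at an adjusted p under 0.05, 1 by DESeq2, 2 on library totals, 2 with 46 libraries, 1 without title runs 7 and 8, 10 with the run block, and 0 to 5 without single libraries (1 without control replicate 3 or 6, 5 without AII + EGF replicate 6). EGF at 24 h (0) gave 4, all lower, with the run block. AII at 6 h and 24 h, AII + EGF against EGF at 24 h and the interaction at 24 h gave 0 in every alternative and without every single library. The interaction at 6 h (0) gave 1 with its own groups and 2 with the run block. The cause of these shifts was not tested.

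Some changes took the other sign. With all 48 libraries LTV1 under AII at 6 h went from −0.34 to 0.26, and the interactions at 6 h went from 0.52 to −0.0083 for DDX10, from 0.66 to −0.020 for UTP15 and from 0.44 to −0.0012 for GNL3. The members' median interaction at 6 h went from 0.23 to −0.10 with these libraries, and their median under AII at 6 h from −0.08 to 0.19 (0.06 with 40 libraries, 0.05 with 46). Changes near 0 turned as well. Under AII + EGF at 6 h UBTF was 0.013 with 46 libraries and PPAN −0.016 on library totals. FBL was −0.077 on library totals, −0.00023 with the study's filter, −0.0023 with its own groups, −0.021 with 48 libraries, −0.065 with 40, −0.092 without runs 7 and 8, −0.052 with complete runs, and −0.086 to 0.17 without single libraries. NOB1 was −0.084 on library totals, −0.0031 with its own groups, −0.039 with 48 libraries, −0.041 with 40, −0.058 without runs 7 and 8, −0.015 with complete runs, and −0.060 to 0.085 without single libraries. MYC under AII at 24 h was −0.056 to 0.0995 without single libraries. The cause was not tested.

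No paired analysis was possible because the labels give no replicate numbers that groups share. Title run, read from the order of titles and not from a replicate number, was fitted as a block in its place. Title runs 7 and 8 hold the libraries numbered replicate 6. Its low counts limit what NOP2 (3 to 35 counts) can show.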
